A study of Homo sapiens with 12 samples.

Results

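The 2 ferritin chains (FTL and FTH1) and 7 antioxidant genes regulated by the transcription factor NRF2 (HMOX1, GCLM, GCLC, TXNRD1, SRXN1, SLC7A11 and NQO1) were examined in breast cancer cells cultured for 3 days within synthetic extracellular matrices. They were taken by symbol from the gene count table, in which all 9 were present among 23368 distinct symbols, and all 9 passed the filter on low counts in each comparison. The cells were the established lines MDA-MB-231, an ER− basal line with mesenchymal features, and T47D, an ER+ luminal A line. All 4 conditions shared the same poly(ethylene glycol) hydrogel with a cell-degradable crosslinker and the same growth medium. The conditions differed by cell line and by the pendant peptide of the matrix, which was the collagen mimic GFOGER or the laminin mimic IKVAV. Each RNA replicate was pooled from 3 hydrogels that had been degraded with collagenase for 20 min. Counts of 11 libraries were analysed, with 3 for MDA-MB-231 in GFOGER, 2 for MDA-MB-231 in IKVAV, and 3 for T47D in each matrix, whereas the third replicate of MDA-MB-231 in IKVAV, which the submitters left out as an outlier, was not analysed here.

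NRF2 is held in the cytoplasm by KEAP1, which directs it to degradation, and oxidants or electrophiles release it to bind antioxidant response elements together with a small MAF protein. Its targets make glutathione, return oxidized thioredoxin and peroxiredoxins to their reduced form, break down heme and reduce quinones. Ferritin is a cage of light (FTL) and heavy (FTH1) chains that stores iron. Both chains are also controlled at translation by iron regulatory proteins, which mRNA counts do not show.

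The core letters of the antioxidant response element, TGACNNNGC (read as GCNNNGTCA on the opposite strand), were searched on both strands of RefSeq promoter windows of GRCh38.p14, which span 250 bases before to 50 bases after each gene start. The letters TGAC also begin sites of AP-1 and CREB factors. Of the 9 genes, 6 had an entry, with 7 starts in all, and GCLM and TXNRD1 held the core, at 3 starts and with 4 matches. Across all 35116 windows, 13.3% held it. The matches of these genes are printed 5′ to 3′ on the gene's strand with the core in capitals, because these are the starts of the 9 genes that held it. The windows of FTL, GCLC, SRXN1 and NQO1 did not hold these letters, and FTH1, HMOX1 and SLC7A11 had no entry. Bases outside the windows were not searched, so a window without the core does not mean that the gene lacks the element.
GCLM, chr1:93909446-93909474, minus strand, core at -34 from the start: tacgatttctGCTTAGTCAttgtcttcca
TXNRD1, upstream start, chr12:104215670-104215698, plus strand, core at -99: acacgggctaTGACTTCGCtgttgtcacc
TXNRD1, upstream start, chr12:104215761-104215789, plus strand, core at -8: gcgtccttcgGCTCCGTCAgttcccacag
TXNRD1, downstream start, chr12:104286920-104286948, plus strand, core at -102: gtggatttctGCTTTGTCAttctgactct
A match describes the letters only, and binding was not measured.

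The libraries held 14338238 to 18452145 reads counted on genes, with a median of 16703842, and a count of 3 corresponded to 0.163 to 0.209 cpm (counts per 1000000 counted reads). Such floors cover counting error only. The markers of each line followed its label. VIM, the mesenchymal filament vimentin, had 22875 to 42454 counts in the MDA-MB-231 libraries and 61 to 87 in T47D. ESR1, the estrogen receptor, had 4295 to 5140 counts in T47D and at most 14 in MDA-MB-231. KRT19, a luminal keratin, was present in MDA-MB-231 as well, with 2715 to 3533 counts. Of the fixed markers, 0 were at a count of 0 in any library, and the 5 MDA-MB-231 markers summed to 3294 to 5814 cpm in that line and to 8.27 to 11.4 cpm in T47D.

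A pair of libraries stood apart from their replicates. GFOGER replicate 3 of MDA-MB-231 differed from replicates 1 and 2 by 16.4 and 18.6 times the sampling noise (chi-square per gene, where 1 is sampling noise alone), while replicates 1 and 2 differed by 2.51. IKVAV replicate 3 of T47D differed from its replicates by 17.9 and 16.9, which themselves differed by 5.5. The results of the 9 genes are therefore also given without these libraries where a call changes, whereas the further gene lists were not recomputed without them. The library totals implied by the deposited RPKM values also formed separate sets, near 5191201 to 5774966 in IKVAV replicate 1 of MDA-MB-231, all GFOGER replicates of T47D and IKVAV replicate 3 of T47D, and 19898878 to 22840524 in the other libraries. What separated these sets is not given in the sources used here. In MDA-MB-231 the lower set was IKVAV replicate 1 alone, so adding the set to a fit of that line amounts to leaving this library out.

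Levels per length, in cpm per kilobase, were ranked over the table without its shortest entries. FTL ranked above every other gene so ranked in each of the 5 MDA-MB-231 libraries. In that line FTL averaged 4765 ± 137 in GFOGER (SD, n = 3) and 3796 ± 9.48 in IKVAV (SD, n = 2). FTH1 was the second of the 9 genes there, and ranked 6 in GFOGER and 2 in IKVAV among the entries ranked. In T47D the order of the chains was the opposite, with FTH1 at ranks 15 to 34 and FTL at ranks 113 to 301. The order of the 9 levels in MDA-MB-231, the same in both matrices, was FTL, FTH1, TXNRD1, NQO1, SRXN1, GCLM, HMOX1, GCLC and SLC7A11. In T47D with GFOGER it was FTH1, FTL, NQO1, TXNRD1, SRXN1, GCLC, HMOX1, GCLM and SLC7A11. Neighbours in these orders did not overlap between libraries. In T47D with IKVAV, NQO1 averaged above FTL, and these neighbours overlapped, as did HMOX1 and GCLM. SLC7A11, the longest of these transcripts at 9648 bases, was the lowest per length in all 4 conditions, from 1.60 ± 0.201 in T47D with GFOGER to 14.5 ± 0.556 in MDA-MB-231 with GFOGER (SD, n = 3).

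**Figure D1:**
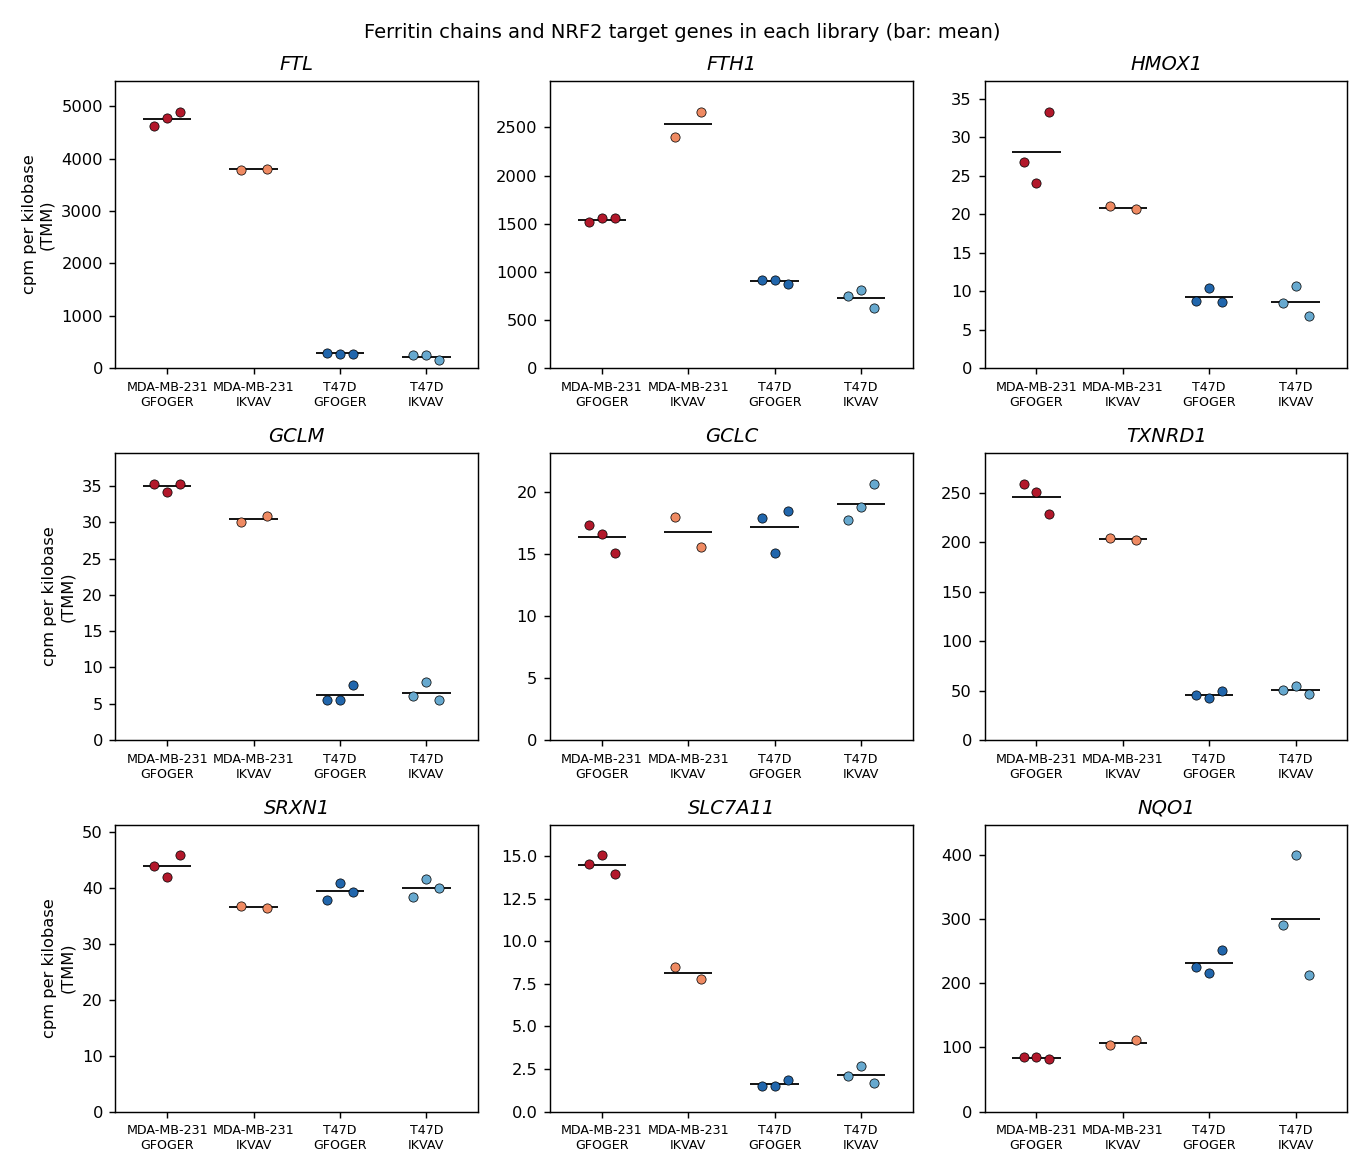
Level of each of the 9 genes in each of the 11 libraries (points, cpm per kilobase after TMM normalization, linear axes from 0) with the mean of the condition (bar). FTL reached 4896 in MDA-MB-231 and at most 288 in T47D, whereas NQO1 was the member with higher levels in T47D and GCLC and SRXN1 lay in similar ranges in both lines.

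To ask how the matrix peptide affected these genes in MDA-MB-231 cells, GFOGER was compared with IKVAV by the quasi-likelihood test of edgeR, with p-values adjusted after Benjamini and Hochberg over 14092 genes, and a gene was called at an adjusted p below 0.05. With GFOGER, 5 of the 9 genes rose (FTL, HMOX1, TXNRD1, SRXN1 and SLC7A11) and 2 fell (FTH1 and NQO1), while GCLM and GCLC did not pass. Among all genes tested, 21.4% were called higher and 21.4% lower. The share of the 9 genes that fell was near the background and that of the genes that rose was above it, in a list of only 9. The 9 were chosen with earlier results of these data known, so these shares are a description only. None of the 9 passed with a fold change over 2 as well, as 3.12% of all genes did in the higher and 6.46% in the lower direction. The libraries of the 2 matrices did not overlap for 8 of the 9 genes and for 63.2% of all genes. The median log2 fold change was 0.25 over the 9 genes and 0.0039 over all genes. In either direction 7 of the 9 were called, beside 42.9% of all genes. Without GFOGER replicate 3, 8 of the 9 were called, GCLM being the gain, beside 57.5% of all genes. Leaving out IKVAV replicate 1 left 4 of the 9 and 26.9% of all genes called, and leaving out IKVAV replicate 2 left 3 of the 9 and 23.9% of all genes, with the lone IKVAV library assumed to vary like the GFOGER libraries.

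The ferritin chains moved in opposite directions in MDA-MB-231. FTH1 (heavy chain, the ferroxidase subunit that oxidizes iron on entry, chr11:61731757-61735132 in hg19, as for the genes that follow, 1229 exonic bases) stood at 1859.6, 1919 and 1914 cpm in GFOGER replicates 1 to 3 and at 2957 and 3273 cpm in IKVAV replicates 1 and 2. Every GFOGER library was below both IKVAV libraries, and FTH1 fell by 0.72 on the log2 scale (SE 0.073, adjusted p = 9.5e-07). FTL (light chain, which supports mineralization of iron in the core, chr19:49468566-49470136, 871 bases) stood at 4026, 4159.8 and 4264 cpm in GFOGER and at 3300.1 and 3312 cpm in IKVAV. All GFOGER libraries were above both IKVAV libraries, a rise of 0.32 (SE 0.068, adjusted p = 0.00124). Both calls were kept under all 14 alternatives run, from -0.80 to -0.64 for FTH1 and from 0.29 to 0.34 for FTL, and without GFOGER replicate 3 the values were -0.72 and 0.31.

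The ratio of FTL to FTH1, per length, was 3.06, 3.06 and 3.14 in the GFOGER libraries of MDA-MB-231 and 1.57 and 1.43 in the IKVAV libraries. The ratio in GFOGER was thus higher in every library, with means of 3.09 ± 0.050 (SD, n = 3) and 1.50 ± 0.10 (SD, n = 2). The sum of both chains, in cpm per kilobase, was 6309 ± 161 in GFOGER and 6330.1 ± 191 in IKVAV, and these sums overlapped. In T47D the ratio was 0.317, 0.304 and 0.314 in GFOGER and 0.324, 0.297 and 0.257 in IKVAV, where IKVAV replicate 3 was the lowest and the conditions overlapped. The sum in T47D was 1182 ± 24.7 in GFOGER and 949 ± 140.5 in IKVAV (SD, n = 3 each). These ratios and sums are descriptions and were not tested. Ferritin genes have many processed copies in the genome, and how reads shared with such copies were counted is not given in the sources used here. The copy FTH1P3 had 8 to 39 counts and FTLP10 had 0, against at least 13013 for FTH1 and 2371 for FTL, and BEST1, which overlaps the end of FTH1, had at most 77. Of the other genes whose spans overlap 1 of the 9, EID3, within TXNRD1, had at most 122 counts against at least 2987 for TXNRD1, and LOC641364, which overlaps SLC7A11, had at most 27 against at least 240.

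**Figure D2:**
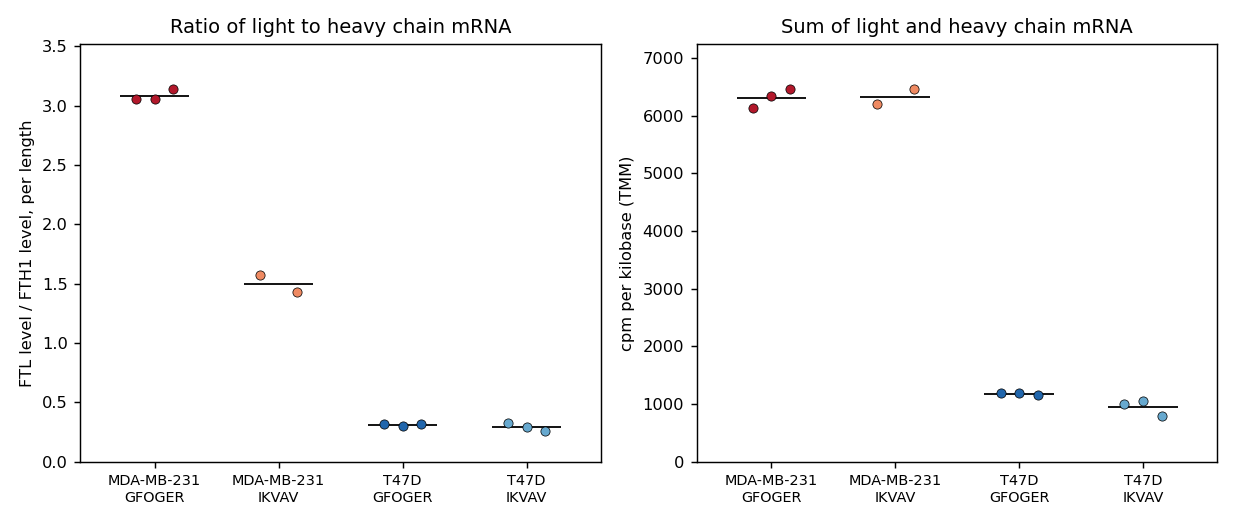
Ratio of FTL to FTH1 (left, per length, no unit) and sum of the levels of both chains (right, cpm per kilobase) in each of the 11 libraries (points) with the mean of the condition (bar), on axes from 0. In MDA-MB-231 the ratio was 3.06 to 3.14 with GFOGER and 1.43 to 1.57 with IKVAV while the sums overlapped, and in T47D the ratio was at most 0.324.

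Among those of the 9 genes that serve glutathione synthesis, the cystine importer rose with GFOGER and the subunits of glutamate-cysteine ligase did not pass. SLC7A11 (the transport subunit of the cystine and glutamate exchanger, which supplies cysteine for glutathione, chr4:139085248-139163503) had 140.2, 145 and 134 cpm in GFOGER and 82.0 and 75.2 cpm in IKVAV in MDA-MB-231. The GFOGER libraries were all higher, and the log2 fold change of 0.82 (SE 0.099, adjusted p = 6.74e-06) was the largest of the 9 in size and was called under all 14 alternatives, from 0.77 to 0.89. GCLM (modifier subunit of glutamate-cysteine ligase, chr1:94352590-94375012, 3074 bases) had 108, 105 and 109 cpm in GFOGER and 92.4 and 95.0 cpm in IKVAV, so that the matrices did not overlap, but at 0.19 (SE 0.095) its adjusted p was 0.12. It passed in 3 of 14 alternatives, without GFOGER replicate 3 (adjusted p = 0.00985), with voom (0.0225) and with the replicate number as a block (0.00608). GFOGER replicate 3 has no IKVAV library of its number, so the block sets it aside too and overlaps with its removal. GCLC (catalytic subunit of the same ligase, chr6:53362140-53409927, 3812 bases) had 66.2, 63.4 and 57.5 cpm in GFOGER and 68.5 and 59.5 cpm in IKVAV. These libraries overlapped, with a log2 fold change of -0.045 (SE 0.11, adjusted p = 0.779).

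In the thioredoxin branch both members rose by small amounts. TXNRD1 (thioredoxin reductase, which passes electrons from NADPH to thioredoxin, chr12:104609559-104744062, 4233 bases) had 1099, 1061 and 970.3 cpm in GFOGER and 867 and 858 cpm in IKVAV of MDA-MB-231. SRXN1 (sulfiredoxin, which repairs over-oxidized peroxiredoxins, chr20:627268-633890, 2565 bases) had 113, 108 and 118 cpm in GFOGER and 94.2 and 93.7 cpm in IKVAV. For both genes every GFOGER library was higher. The log2 fold changes were 0.27 (SE 0.082, adjusted p = 0.0143) for TXNRD1 and 0.25 (SE 0.096, adjusted p = 0.0408) for SRXN1. TXNRD1 was not called without GFOGER replicate 1 (adjusted p = 0.0933). It was also not called without IKVAV replicate 1 or without IKVAV replicate 2, which each leave a lone IKVAV library. A term for the set of RPKM totals, which here repeats the removal of IKVAV replicate 1, lost the call as well. SRXN1 was not called without GFOGER replicate 1 (0.132) or GFOGER replicate 2 (0.0645), nor with upper-quartile normalization (0.0718) or library size alone (0.0598, adjusted p in each case). Nor was SRXN1 called without IKVAV replicate 1, without IKVAV replicate 2 or with that term.

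HMOX1 and NQO1, the remaining members, moved in opposite directions. HMOX1 (heme oxygenase, which opens the heme ring and releases its iron, chr22:35777060-35790207, 1590 bases) had 42.7, 38.3 and 53.0 cpm in GFOGER and 33.5 and 32.8 cpm in IKVAV of MDA-MB-231. All GFOGER libraries were higher, GFOGER replicate 3 most of all, and the rise was 0.42 (SE 0.13, adjusted p = 0.0185), or 0.29 without that replicate. HMOX1 was not called without IKVAV replicate 1 or without IKVAV replicate 2, which each leave a lone IKVAV library. Nor was HMOX1 called with a term for the set of RPKM totals, which repeats the removal of IKVAV replicate 1. NQO1 (a quinone reductase, chr16:69743304-69760533, 2591 bases) had 222, 220.1 and 211 cpm in GFOGER and 269 and 288 cpm in IKVAV. All GFOGER libraries were lower, and NQO1 fell by 0.36 (SE 0.086, adjusted p = 0.00295), a call that was lost without IKVAV replicate 2 (adjusted p = 0.0972) and with all 4 conditions in a common fit (adjusted p = 0.0807).

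In T47D cells, 0 of the 9 genes were called among 13642 tested, as were 0.022% of all genes in the higher and 0.022% in the lower direction, and 0% and 0.022% with a fold change over 2. At an unadjusted p below 0.05 there were 4 of the 9 (FTL, FTH1, SLC7A11 and NQO1), beside 11.2% of all genes. DESeq2 called 0 of the 9 and 78 genes of the table, and limma's voom with sample quality weights called these 4 and 1508 genes of the table, or 11.1%. The conditions did not overlap for FTL and FTH1 alone, or 2 of 9, beside 16% of all genes. The median log2 fold change was -0.074 over the 9 genes and -0.0010 over all genes.

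Both ferritin chains had higher values with GFOGER in T47D, without passing the test. FTL had 251, 243 and 240.2 cpm in GFOGER and 213, 211 and 141 cpm in IKVAV, with IKVAV replicate 3 far below the others. FTH1 had 1119, 1125 and 1079 cpm in GFOGER and 926, 1003 and 773 cpm in IKVAV, again lowest in IKVAV replicate 3. The log2 fold changes were 0.38 (SE 0.13, adjusted p = 0.302) for FTL and 0.30 (SE 0.092, adjusted p = 0.275) for FTH1, and 0.21 and 0.20 without IKVAV replicate 3 (adjusted p = 0.0867 and 0.09). With a term for the set of RPKM totals they were 0.80 and 0.52 (adjusted p = 4.25e-05 and 0.00239), where the matrices are compared within a set only through IKVAV replicate 3.

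SLC7A11 and NQO1 had lower values with GFOGER in T47D, and for both the result turned on IKVAV replicate 3. SLC7A11 had 14.4, 14.3 and 17.7 cpm in GFOGER and 20.4, 25.9 and 16.0 cpm in IKVAV. NQO1 had 584, 558 and 652 cpm in GFOGER and 753, 1033 and 549 cpm in IKVAV. In each case IKVAV replicates 1 and 2 were above every GFOGER library and IKVAV replicate 3 lay within or below their range. The log2 fold changes of -0.42 (SE 0.17, adjusted p = 0.37) for SLC7A11 and -0.38 (SE 0.16, adjusted p = 0.405) for NQO1 did not pass. Without IKVAV replicate 3 they were -0.58 and -0.58, both called (adjusted p = 0.00817 and 0.000583), and 1054 genes of the table, or 7.62%, were called in place of 6. The libraries with low values of SLC7A11 and NQO1 in T47D were those of the lower set of RPKM library totals, and with that set as a term the log2 fold changes were -0.041 and 0.13. Without IKVAV replicate 3 the sets coincide with the matrices in T47D, so peptide and set cannot be told apart there. The remaining 5 members were between -0.15 for GCLC and 0.10 for HMOX1. HMOX1 had 13.9, 16.5 and 13.7 cpm in GFOGER and 13.4, 17.0 and 10.7 cpm in IKVAV, which overlapped, as did the libraries of GCLM, GCLC, TXNRD1 and SRXN1.

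**Figure D3:**
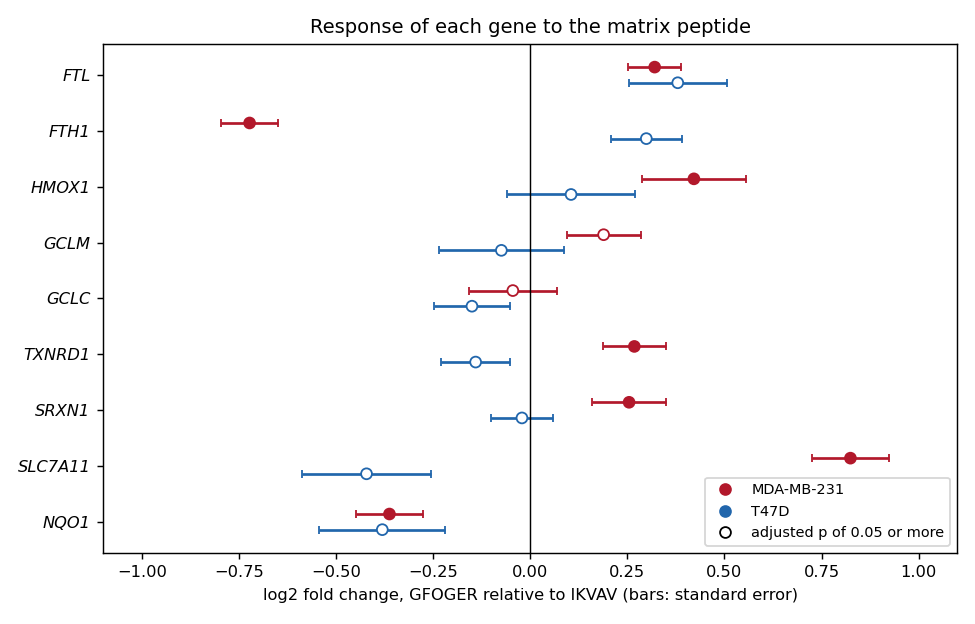
Log2 fold change of each of the 9 genes in GFOGER relative to IKVAV in MDA-MB-231 (red) and T47D (blue), with bars for the standard error of edgeR's quasi-likelihood fit and open points where the adjusted p was 0.05 or more. FTH1 and SLC7A11 lay on opposite sides of 0 in the 2 lines, at -0.72 and 0.30 for FTH1 and at 0.82 and -0.42 for SLC7A11.

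Whether the lines differed in their response was asked by testing the interaction between line and peptide over 15320 genes with all 4 conditions in a common fit. Of the 9 genes, 2 had a higher response in MDA-MB-231 than in T47D (SLC7A11 and TXNRD1) and 1 a lower response (FTH1), beside 10.9% and 10.2% of all genes, or 21% in either direction. With a difference over 2-fold these were SLC7A11 and FTH1, beside 2.25% higher and 4.17% lower. The difference of the log2 fold changes was -1.01 for FTH1 (SE 0.12, adjusted p = 1.28e-05) and 1.25 for SLC7A11 (SE 0.20, adjusted p = 0.000177), and both were called under all 19 alternatives. Without IKVAV replicate 3 of T47D they were -0.91 and 1.41. For TXNRD1 it was 0.42 (SE 0.12, adjusted p = 0.0221), and this call was lost in 8 of 19 alternatives. The value was lowest with a term for the set of RPKM totals (0.30, adjusted p = 0.213), and the other 7 were the removal of GFOGER replicate 1 or 2 of MDA-MB-231 (adjusted p = 0.0733 and 0.058), IKVAV replicate 1 or 2 of MDA-MB-231 (0.0774 and 0.106), GFOGER replicate 1 or 2 of T47D (0.0599 and 0.0643) or IKVAV replicate 2 of T47D (0.0654). For FTL and NQO1, with differences of -0.052 and 0.026, the response of the lines did not differ beyond its error (SE 0.16 and 0.21), and the other 4 genes did not pass either.

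Between the lines, with both matrices averaged, 6 of the 9 genes were higher in MDA-MB-231 (FTL, FTH1, HMOX1, GCLM, TXNRD1 and SLC7A11) and NQO1 was lower, and all 7 differed by more than 2-fold in this average. Among all genes tested, 42% were called higher and 42.5% lower in MDA-MB-231, and 23.7% and 22.6% with a fold change over 2. FTL was 17.3-fold higher in MDA-MB-231 (log2 fold change 4.11, SE 0.087, adjusted p = 9.65e-20), from 3300.1 to 4264 cpm there against 141 to 251 cpm in T47D. FTH1 was 2.43-fold higher (1.28, SE 0.062), and every MDA-MB-231 library was above every T47D library. SLC7A11 was 5.85-fold higher (2.55, SE 0.098). For these 2 genes, whose interaction passed 2-fold, the ratio of mean cpm was 1.71 in GFOGER and 3.46 in IKVAV for FTH1 and 9.04 and 3.79 for SLC7A11. GCLM was 5.15-fold higher (2.37, SE 0.096), where T47D had 16.8, 17.0 and 23.1 cpm of GCLM in GFOGER and 18.5, 24.4 and 17.0 cpm in IKVAV. TXNRD1 was 4.66-fold higher (2.22, SE 0.063), with 178 to 232 cpm in T47D. HMOX1 was 2.71-fold higher (1.44, SE 0.11). NQO1 was 2.77-fold lower in MDA-MB-231 (-1.47, SE 0.11), and again the lines did not overlap. These 7 calls were kept under all 19 alternatives.

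GCLC and SRXN1 overlapped between the lines over both matrices and did not pass the test. GCLC had 57.6 to 78.9 cpm in T47D, overlapping the 57.5 to 68.5 cpm of MDA-MB-231, with a log2 fold change of -0.13 (SE 0.076, adjusted p = 0.128). It was called with upper-quartile normalization (-0.21, adjusted p = 0.0148), with library size alone (-0.20, adjusted p = 0.018) and without GFOGER replicate 2 of T47D (-0.17, adjusted p = 0.0457). SRXN1 had 97.1 to 107 cpm in T47D against 93.7 to 118 cpm in MDA-MB-231, and its log2 fold change was 0.015 (SE 0.059, adjusted p = 0.818). Within a matrix its lines did not overlap, with a ratio of mean cpm of 1.11 in GFOGER and 0.916 in IKVAV, and its interaction did not pass. For the catalytic and modifier subunits of glutamate-cysteine ligase the line contrasts were thus -0.13 and 2.37, and the difference between them was not tested. In bulk RNA, fewer cells expressing a gene and less RNA per cell cannot be told apart.

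Across the 11 libraries GCLM and TXNRD1, whose promoter matches are printed above, had a Pearson correlation of log2 cpm of 0.996. FTL, whose window did not hold the core, had 0.990 with TXNRD1 and 0.988 with GCLM. FTL and NQO1 had -0.940. These values describe libraries that fall into 2 cell lines and largely restate the difference between the lines. Among the 11147 genes that averaged a log2 cpm of 2 or more, the patterns most like FTL were those of LAMC1, ZSWIM6 and FOSL1 (0.998 each). The nearest to FTH1 were RBM5, PSAP and B4GALT5 (0.989, 0.988 and 0.988). TXNRD1 was nearest to SMURF2, IGF2BP3 and PLAT (0.999, 0.999 and 0.998), GCLM to POU2F2, LUZP1 and TXNRD1 (0.998, 0.996 and 0.996), HMOX1 to TMEM93, BAX and DGAT2 (0.992, 0.990 and 0.989) and NQO1 to KIF3A, CSNK1G1 and VCPIP1 (0.991, 0.990 and 0.989). The 2 genes that did not pass between the lines had lower correlations with their nearest patterns, TXLNG, ELF2 and RMI1 for GCLC (0.9195, 0.910 and 0.877) and CAD, NOC2L and TNFRSF11A for SRXN1 (0.945, 0.942 and 0.936).

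The regulators of the pathway were measured beside its targets. Of 10 NRF2 regulators in MDA-MB-231, 2 rose with GFOGER, 1 fell and 7 did not pass, with a median of 0.11, where 21.4% of all genes were called in each direction, a share that also stands beside the lists that follow. BACH1, a repressor that competes with NRF2 at its elements, had 167 ± 16.2 cpm in GFOGER (SD, n = 3) and 107 ± 3.42 cpm in IKVAV (SD, n = 2), a rise of 0.64 (SE 0.10, adjusted p = 0.000142). MAFF, a small MAF partner, rose by 0.30 (SE 0.11, adjusted p = 0.0346). SQSTM1, the autophagy receptor p62 that binds KEAP1, fell by 0.36 (SE 0.084, adjusted p = 0.00256), from 1723 ± 41.9 cpm in IKVAV to 1349.9 ± 148 cpm in GFOGER. NFE2L2, which encodes NRF2, had 208 ± 31.8 cpm in GFOGER and 243 ± 3.22 cpm in IKVAV (-0.23, adjusted p = 0.116). KEAP1 was at 0.18 (adjusted p = 0.171), and its ubiquitin ligase partners CUL3 and RBX1 at 0.10 and 0.12. MAFG, MAFK and the related factor NFE2L1 were at 0.019, 0.38 and 0.021, none of them called. In T47D 0 of the 10 were called, between -0.26 for NFE2L2 and 0.17 for MAFG. BACH1 was the regulator with an interaction that passed (0.79, SE 0.16, adjusted p = 0.00153). Between the lines 7 of 10 were higher in MDA-MB-231 and 2 lower, beside 42% and 42.5% of all genes. The higher ones included MAFF (3.73), MAFG (2.29), SQSTM1 (2.02), BACH1 (1.66) and NFE2L2 (0.81), whereas CUL3 (-0.21) and MAFK (-0.35) were lower and RBX1 did not pass.

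A further list of NRF2 targets did not move in a common direction in MDA-MB-231. Of 27 genes 24 were tested, 5 rose, 7 fell and 12 did not pass, with a median of 0.040. Past 2-fold were CBR3, a carbonyl reductase, which rose by 1.23, and 3 that fell, ABCC3, an exporter of conjugates (-1.43), EPHX1, an epoxide hydrolase (-1.30), and the aldo-keto reductase AKR1C2 (-1.07), which had 16 to 46 counts. The other genes that rose, named after their values were seen, were AKR1C1 (0.56), TXN (thioredoxin, 0.56), PRDX1 (a peroxiredoxin, 0.49) and TALDO1 (0.24). The AKR1C genes are near-identical copies, and their counts are uncertain. In T47D 22 of the 27 were tested and 0 were called, and between the lines 13 of 25 were higher in MDA-MB-231 and 9 lower, beside 42% and 42.5% of all genes.

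Genes of the glutathione, thioredoxin and peroxide systems gave mixed counts in MDA-MB-231. Of 17 glutathione enzymes 6 rose and 6 fell with GFOGER, with a median of 0.023, and past 2-fold was GGT1, which breaks down extracellular glutathione (-1.05). Chosen after their values were seen, SLC3A2, the chain that pairs with SLC7A11 at the membrane, rose by 0.37 (SE 0.088, adjusted p = 0.00275), and GPX4, the peroxidase that reduces lipid peroxides with glutathione, fell by 0.71 (SE 0.084, adjusted p = 5.66e-06), from 315 ± 1.61 cpm in IKVAV to 194 ± 7.16 cpm in GFOGER. In T47D SLC3A2 was at -0.11 and GPX4 at 0.23, not called. The interaction passed for both, at 0.49 and -0.93. Of 12 genes of the thioredoxin and peroxiredoxin system 3 rose and SESN3, a sestrin, fell by 1.20. Named after their values were seen, the 3 were TXN2 (0.37), PRDX4 (0.42) and TXNL1 (0.30). Of 5 genes listed for superoxide and peroxide removal 4 fell and 0 rose, beside 21.4% of all genes in each direction. The list median was -0.38. These 4, also named after their values were seen, were SOD2 (-0.38), SOD3 (-0.65), CAT (-0.64) and CCS (-0.38). In T47D 0 genes of these 3 lists were called.

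Genes of iron handling moved both ways. In MDA-MB-231 17 of 21 were tested, 5 rose and 4 fell with GFOGER, with a median of 0.061. Past 2-fold were 3 that fell, SLC40A1, the iron exporter ferroportin (-1.43), LCN2, lipocalin that binds siderophores (-1.27), and CP, the plasma ferroxidase ceruloplasmin (-3.09), which averaged 0.294 cpm in GFOGER and 2.54 cpm in IKVAV. Chosen after their values were seen, TFRC, the transferrin receptor, had 884 ± 88.0 cpm in GFOGER and 569 ± 24.9 cpm in IKVAV, a rise of 0.63 (SE 0.094, adjusted p = 5.62e-05). The reductase STEAP3 (0.61), the importer SLC39A14 (0.39), the iron sensor ACO1 (0.39) and the iron chaperone PCBP1 (0.39) also rose. HFE fell by 0.49, and these genes were likewise named after their values were seen. In T47D 0 of 17 were called, and TFRC was at 0.31 and LCN2 at 0.85. The interaction was -1.23 for SLC40A1 and -2.12 for LCN2, both called. Ferroportin also differed most between the lines among these genes, at 4.39 ± 0.634 cpm in MDA-MB-231 and 350 ± 16.2 cpm in T47D with GFOGER (SD, n = 3 each). With IKVAV the gap was smaller, at 11.8 ± 0.415 cpm in MDA-MB-231 (SD, n = 2) and 397 ± 34.7 cpm in T47D (SD, n = 3).

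**Figure D4:**
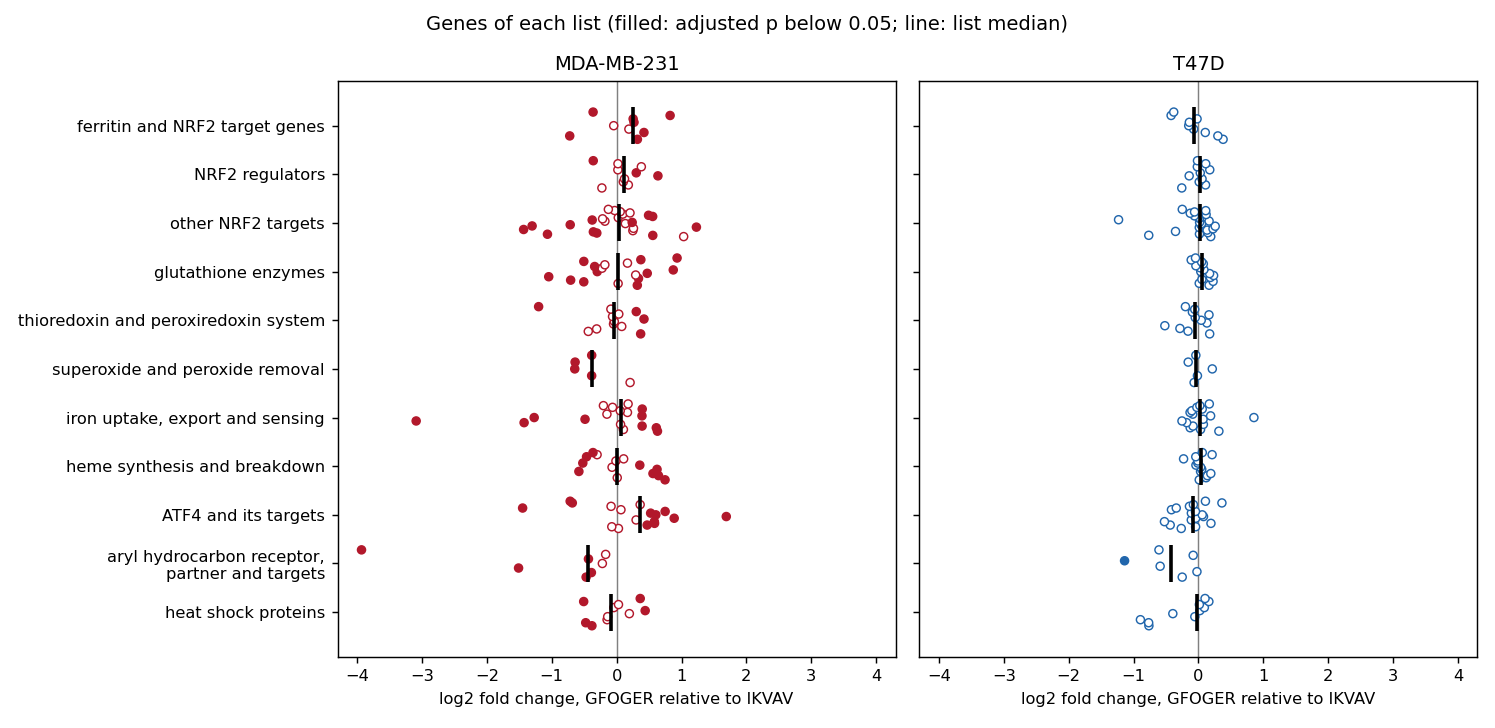
Log2 fold change in GFOGER relative to IKVAV for each tested gene of 11 lists (points, filled where the adjusted p was below 0.05) with the list median (line), in MDA-MB-231 (left) and T47D (right). Called genes lay on both sides of 0 for most lists in MDA-MB-231, and in T47D the single filled point is CYP1A1 at -1.14.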

How the data were processed

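RNA was sequenced from 4 conditions, and the deposited table holds, for 24656 entries and 11 libraries, the authors' raw read counts per gene and RPKM values. Per the submitters' processing notes and the study's methods, reads were trimmed (Trim Galore 0.4.4), aligned to hg19 (TopHat2 2.1.0) and counted on genes (HTSeq 0.6.1p1). SAMtools 1.4, bedtools 2.17, FastQC and edgeR 3.16.5 are also named in those notes. The library kit is stranded, but neither the annotation nor the strand setting used in counting is given in the sources used here. The deposited RPKM values served to read the library totals they imply and not for tests. Gene lengths are those of the table, which are not mostly multiples of 3 and so include untranslated exons. Positions in hg19 are the table's, and promoter sequences are from RefSeq (GRCh38.p14).

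For each of the 23368 symbols the entry with most counts was kept, which set aside 1288 entries, 4 of them with a count. Tests were run in R 4.3.3 (edgeR 4.0.16, with limma 3.58.1 and DESeq2 1.42.0 for alternatives). After TMM normalization and the default filterByExpr filter, the quasi-likelihood test of edgeR was applied with Benjamini-Hochberg adjustment over all genes tested. Each line was fitted alone for the peptide, and all conditions together for the line contrast and the interaction. Fold changes are GFOGER relative to IKVAV, or MDA-MB-231 relative to T47D, and the standard error is the log2 fold change over the square root of the F statistic. Called means an adjusted p below 0.05, and separately a fold change over 2 as well. Levels are TMM cpm or cpm per kilobase, and correlations used log2 cpm with a prior count of 2. Simulated counts with known changes served to check the tests.

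The 9 genes and the 12 lists beside them were chosen with earlier results of these data known. Named were all 9 genes, all NRF2 regulators, genes of the other lists past 2-fold in either line (at most 3 per list and line), overlapping genes, ferritin pseudogenes and the 3 patterns most like each of the 9, which are not reported here for SLC7A11. AKR1C2 was the fourth of its list and falls outside this rule, as do genes marked as chosen or named after their values were seen. ATF4, HSP90AA1, HSPA8 and the line markers VIM, ESR1 and KRT19 were also named outside it. The lists were NRF2 regulators, other NRF2 targets, glutathione enzymes, the thioredoxin and peroxiredoxin system, superoxide and peroxide removal, iron handling, heme metabolism, ATF4 and its targets, the aryl hydrocarbon receptor with its partner and targets, heat shock proteins and markers of either line. Whether replicates came from separate cultures is not given, so p-values measure the spread between these libraries, which may be technical. Alternatives were DESeq2, voom with sample quality weights, other normalizations and filters, the replicate number as a block, the set of RPKM totals as a term, a common fit and leaving out each library.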

Additional observations from a re-analysis of the deposited data

Results flagged for a closer look

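For 3 of the 9 genes the response to GFOGER relative to IKVAV differed between the cell lines by edgeR's test of the interaction, as for 21% of all genes. The log2 response of FTH1, the ferritin heavy chain, was lower in MDA-MB-231 than in T47D by a difference of -1.01, with -0.72 in MDA-MB-231 and 0.30 in T47D. For SLC7A11, the cystine importer, the difference was 1.25, with 0.82 in MDA-MB-231 and -0.42 in T47D. For TXNRD1, thioredoxin reductase, it was 0.42, with 0.27 in MDA-MB-231 and -0.14 in T47D, and this call was lost in 8 of 19 alternatives. The value for T47D alone was not called for any of these genes in edgeR's test of all libraries. SLC7A11 was called there without IKVAV replicate 3 (-0.58, adjusted p = 0.00817), where the matrices and the sets of RPKM totals coincide. It was also called with voom (-0.60, adjusted p = 0.00359), and was at -0.041 with a term for the set of RPKM totals. FTH1 was called with that term (0.52, adjusted p = 0.00239) and with voom (0.23, adjusted p = 0.0186). No group had more than 3 libraries, so single libraries were not tested as outliers.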

How the results depend on the processing

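None of the log2 fold changes of the 9 genes reversed a call under the alternatives. In MDA-MB-231 107 of 126 values kept their side of the threshold, 16 lost the call and 3 gained it, and FTL, FTH1 and SLC7A11 lost none. Some alternatives overlap in that line. The RPKM term sets aside IKVAV replicate 1 and the replicate block sets aside GFOGER replicate 3, as the removal of each does. Values that were not called could change sign, as for GCLC, which ran from -0.14 to 0.061. In T47D 127 of 135 values kept their side of the threshold and 8 gained a call. Between the lines 168 of 171 kept their side, and for the interaction 161 of 171 did, with 8 lost. Uncalled values changed sign there too, as for GCLM in T47D (-0.27 to 0.16). The same held for SRXN1 between the lines (-0.070 to 0.037) and FTL in the interaction (-0.46 to 0.12). Of 36 levels per length, 10 moved by more than the replicate spread with library size alone in place of TMM, by -3.89% to 2.87%.

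In MDA-MB-231, with RPKM library totals as a term, 3898 genes and 4 of the 9 were called at any fold. Leaving out each library gave 3444 to 8017 genes and 3 to 8 of the 9 (3899 without IKVAV replicate 1, 3444 without IKVAV replicate 2). In T47D the calls at any fold and at 2-fold were 78 and 8 with DESeq2, 121 and 20 with no filter, 1508 and 146 with voom (4 of the 9), 345 and 49 with RPKM totals as a term (2 of the 9) and 32 and 5 with all conditions in 1 fit. Leaving out each library gave 1 to 1054 genes at any fold, 0 to 94 at 2-fold and 0 to 2 of the 9, the highest without IKVAV replicate 3, and 1 or 2 genes at any fold without any GFOGER replicate or IKVAV replicate 2 (12 without IKVAV replicate 1). Between the lines, 4091 genes passed 2-fold with at least 10 counts in every library. For the interaction, voom called 5188 genes, 5 of the 9 and, at 2-fold, 1 of the 9, and RPKM totals as a term left 1 of the 9 at 2-fold. Leaving out each library gave 1823 (without IKVAV replicate 2 of MDA-MB-231) to 4053 genes, 2 to 3 of the 9, and 1 to 2 at 2-fold (1 without that library or IKVAV replicate 3 of T47D). The causes were not tested.

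With the replicate block 8 of the 9 were called in MDA-MB-231 (GCLM at 0.19, adjusted p = 0.00608). The block sets aside GFOGER replicate 3 there, as it has no IKVAV library of its number. T47D had 38 genes at any fold and 5 at 2-fold with the block, and the interaction 1 of the 9 at 2-fold (FTH1 at -0.98). Across 15 pairs of libraries with the same number, deviations from the group means correlated between -0.184 and 0.0429, 0 of them over 0.1, so the number did not pair the libraries. The lowest counts of the 9 genes were those of HMOX1 and SLC7A11 in T47D, 180 and 240.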

Other observations

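Lists of neighbouring stress pathways were also counted. ATF4, the factor of the amino acid response, shares SLC7A11 as a target with NRF2. A list of 17 genes held ATF4 itself, which was not called in MDA-MB-231 or T47D, and its targets. In MDA-MB-231, 8 of the 17 rose with GFOGER and 3 fell, with a median log2 fold change of 0.36, beside 21.4% of all genes called in each direction. Past 2-fold were PHGDH, which starts serine synthesis (1.69, SE 0.31, adjusted p = 0.000345 by edgeR with Benjamini-Hochberg adjustment), and DDIT4, an inhibitor of mTORC1 (-1.45). In T47D 0 of 17 were called, and the interaction passed for 7 in the higher and 3 in the lower direction, beside 10.9% and 10.2% of all genes. Of 14 genes of heme synthesis and breakdown 5 rose and 4 fell in MDA-MB-231, with a median near 0 (-0.00065), and 0 were called in T47D.

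A list of 8 genes held the aryl hydrocarbon receptor AHR, a sensor of planar compounds that also controls NQO1, its partner ARNT and its targets. In MDA-MB-231, 5 of 7 tested fell with GFOGER, 2 did not pass and 0 rose, with a median of -0.43, beside 21.4% of all genes called lower. The 5 were AHR (-0.47), ARNT (-0.39) and the targets CYP1B1 (-0.43), AHRR and ALDH3A1, of which the first 3 are named after their values were seen. ALDH3A1, an aldehyde dehydrogenase, fell by 3.93 (SE 0.23, adjusted p = 1.57e-09), from 24.5 ± 3.50 cpm in IKVAV (SD, n = 2) to 1.62 ± 0.627 cpm in GFOGER (SD, n = 3), and AHRR, the receptor's repressor, fell by 1.51. In T47D 1 of 6 fell, CYP1A1, a cytochrome that metabolizes such compounds (-1.14, SE 0.16, adjusted p = 0.0204), 5 did not pass and 0 rose.

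Of 10 heat shock proteins 2 rose and 3 fell in MDA-MB-231, and 0 were called in T47D. Their summed level in T47D was 6403, 5997 and 6585 cpm in GFOGER and 8138, 8752 and 6679.8 cpm in IKVAV replicates 1 to 3, with HSP90AA1 the most abundant of them in GFOGER and HSPA8 in IKVAV, so that IKVAV replicate 3 lay near the GFOGER libraries, as it did for NQO1 and SLC7A11. Their part in those results was not tested. Of the 5 MDA-MB-231 markers 4 rose and 1 fell with GFOGER in that line, AXL, a receptor tyrosine kinase, by 1.42, and of the 6 T47D markers 1 fell there. In T47D 0 of either marker list were called.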
